A study of Homo sapiens with 6 samples.

Results

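The genes described here handle the storage, uptake, export and sensing of cellular iron: FTL, FTH1, NCOA4, TFRC, SLC11A2, STEAP3, SLC40A1, ACO1, IREB2 and FBXL5. They were taken by gene symbol from a table of 18625 genes. All 10 symbols were listed, each on 1 row, and none was absent. RNA-seq was performed on NB4 cells, a single human cell line of acute promyelocytic leukemia, grown in culture for 3 days with DMSO, the solvent control, or with 10 μM Tan I (tanshinone I, a compound of the plant Salvia miltiorrhiza). Each group held 3 libraries, numbered 1 to 3. Nothing in the labels says whether the 3 libraries came from separate cultures, so the p-values measure the spread between these libraries, which may be technical. Values are normalized counts, that is, reads per gene divided by one size factor per library.

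Iron enters most cells bound to transferrin through the transferrin receptor, is reduced and carried out of the endosome, and what is not used is stored inside ferritin shells built from a light and a heavy chain. Sensors set this balance: the iron regulatory proteins bind stem-loops called iron-responsive elements in the mRNAs of ferritin, ferroportin and the transferrin receptor, and FBXL5 is the iron-sensing subunit of a ubiquitin ligase that removes iron regulatory protein 2. Binding in a 5′ UTR blocks translation, and binding in a 3′ UTR protects the mRNA from decay. Leukemic promyelocytes also need iron to fill the heme enzyme myeloperoxidase.

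The stem-loops are shown because binding in a 5′ UTR and binding in a 3′ UTR act differently on an mRNA. A search of the annotated UTRs of the members (GENCODE release 44, GRCh38, transcript strand only) for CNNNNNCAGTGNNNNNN, with all 5 pairs of the upper stem able to pair, found 7 sites in 4 genes. Each is given over 30 bases, 5′ to 3′ on the transcript strand, with the loop in capitals.
FTL, 5′ UTR: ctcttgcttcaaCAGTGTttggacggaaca
FTH1, 5′ UTR: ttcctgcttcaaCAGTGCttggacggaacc
SLC40A1, 5′ UTR: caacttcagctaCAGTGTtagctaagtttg
TFRC, 3′ UTR, site 1: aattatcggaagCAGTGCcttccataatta
TFRC, 3′ UTR, site 2: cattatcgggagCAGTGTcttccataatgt
TFRC, 3′ UTR, site 3: ctgtatcggagaCAGTGAtctccatatgtt
TFRC, 3′ UTR, site 4: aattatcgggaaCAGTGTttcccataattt

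In GRCh38 the FTL site lies at chr19:48965335-48965364 on the plus strand, and the FTH1 site at chr11:61967573-61967602 on the minus strand. The SLC40A1 site lies at chr2:189580660-189580689 on the minus strand. The 4 TFRC sites lie on the minus strand at chr3:196050978-196051007, chr3:196050574-196050603, chr3:196050509-196050538 and chr3:196050462-196050491. Each site lay within 1 exon of a protein-coding gene: FTL (chr19:48965309-48966879, 4 exons in the canonical transcript), FTH1 (chr11:61959718-61967634, 4 exons), SLC40A1 (chr2:189560590-189583758, 8 exons) or TFRC (chr3:196012511-196082153, 19 exons). Of 19701 canonical coding transcripts, 0.0964% held a match in the 5′ UTR and 0.614% in the 3′ UTR. A site with the searched letters but without full pairing of the upper stem was not counted as a match. SLC11A2, ACO1, IREB2, NCOA4, STEAP3 and FBXL5 held no match, which says only that no site in their annotated UTRs met both conditions. Of these, SLC11A2 (chr12:50979401-51028566), NCOA4 (chr10:46005088-46030623) and FBXL5 (chr4:15604381-15681679) lie on the minus strand, and ACO1 (chr9:32384603-32454769), IREB2 (chr15:78437431-78501453) and STEAP3 (chr2:119223831-119265652) on the plus strand. RNA-seq reads the amount of each mRNA and not its translation, so control through the 5′ sites is not measured here.

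Size factors ran from 0.75 (Tan I 3) to 1.28 (DMSO 3). The libraries held between 21502760 (Tan I 3) and 31679138 (DMSO 3) reads on the listed genes. A gradient that the labels do not name separated them: the first principal component of the 16887 genes tested held 70.8% of the variance. Its scores ran from -48.0 (DMSO 1) through -46.8 (Tan I 1), -26.7 (DMSO 3), 8.65 (Tan I 2) and 41.1 (DMSO 2) to 71.6 (Tan I 3), so the groups overlapped on it. The share of reads on ribosomal protein genes ran from 10.9% (Tan I 1) to 16.9% (Tan I 3) and was 15.2% in DMSO 2. Of 7 promyelocyte markers, 6 were listed (ELANE was not), and their summed level ran from 71171 to 77317 normalized counts in DMSO and from 42027 to 50381 in Tan I. MPO (myeloperoxidase), the highest of them, fell by 41.5% (limma, unadjusted p = 0.000988, adjusted p = 0.999; adjusted p = 4.3e-09 with DESeq2 and 0.9998 with edgeR). Most of that gap was MPO: without it the other 5 summed to between 10782 and 13210 in DMSO and between 8748 and 11143 in Tan I, which overlap. Of these 5, CTSG also lay lower in every Tan I library (limma, unadjusted p = 0.0262, adjusted p = 0.999), where 7.89% of all genes had groups apart. AZU1, PRTN3 and CEBPE overlapped between the groups, and CD33 overlapped with a mean 5.1% higher in Tan I. With the first component as a covariate, 5 of the 6 listed markers passed the rule given below, all lower, and 4 did with adjustment (limma). That fit passed 8.86% of all genes without adjustment and 1.15% with it. Of 7 erythroid markers only SLC4A1 was listed, at 10.9 or less. The summed macrophage markers, with 2 of 6 listed, ran from 20.5 to 26.6 in DMSO and from 20.0 to 39.1 in Tan I. Lymphoid markers, with 4 of 5 listed, ran from 433 to 586 and from 451 to 699. Of 4 platelet markers only ITGA2B was listed, at 1060.2 to 1127 in DMSO and 1332 to 1418 in Tan I. In bulk RNA, fewer cells of a type and less RNA per cell cannot be told apart, and the part of these shifts in the values of the iron genes was not tested.

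Whether Tan I changed the mRNAs of iron handling was asked with limma on log2(normalized count + 1), for which all 10 members passed the filter of a mean of at least 10. A gene was called when its unadjusted p-value did not exceed 0.05 and its log2 fold change was 0.25 or more in size. By this rule 0 of the 10 members were called, where 2.42% of all 16887 genes were. With Benjamini-Hochberg adjustment over all genes, 0 members and 0 of all genes were called, and the adjusted p-value was 0.999 for every member. The edgeR test also called 0 members without adjustment, where 2.42% of all genes were called, and 0 with it, where 0 of all genes were. DESeq2 called 1 without adjustment, FTL, where 2.49% of all genes were called, and 0 with it, where 0.0947% were. The levels of the groups overlapped in all 10 members, where 7.89% of all genes had groups apart. The fold change was above 0 in 3 members and below 0 in 7, with a median of -0.13 on the log2 scale against -0.0016 over all genes tested. The values of each library are shown in the plot of the 10 members by treatment.

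**Figure D1:**
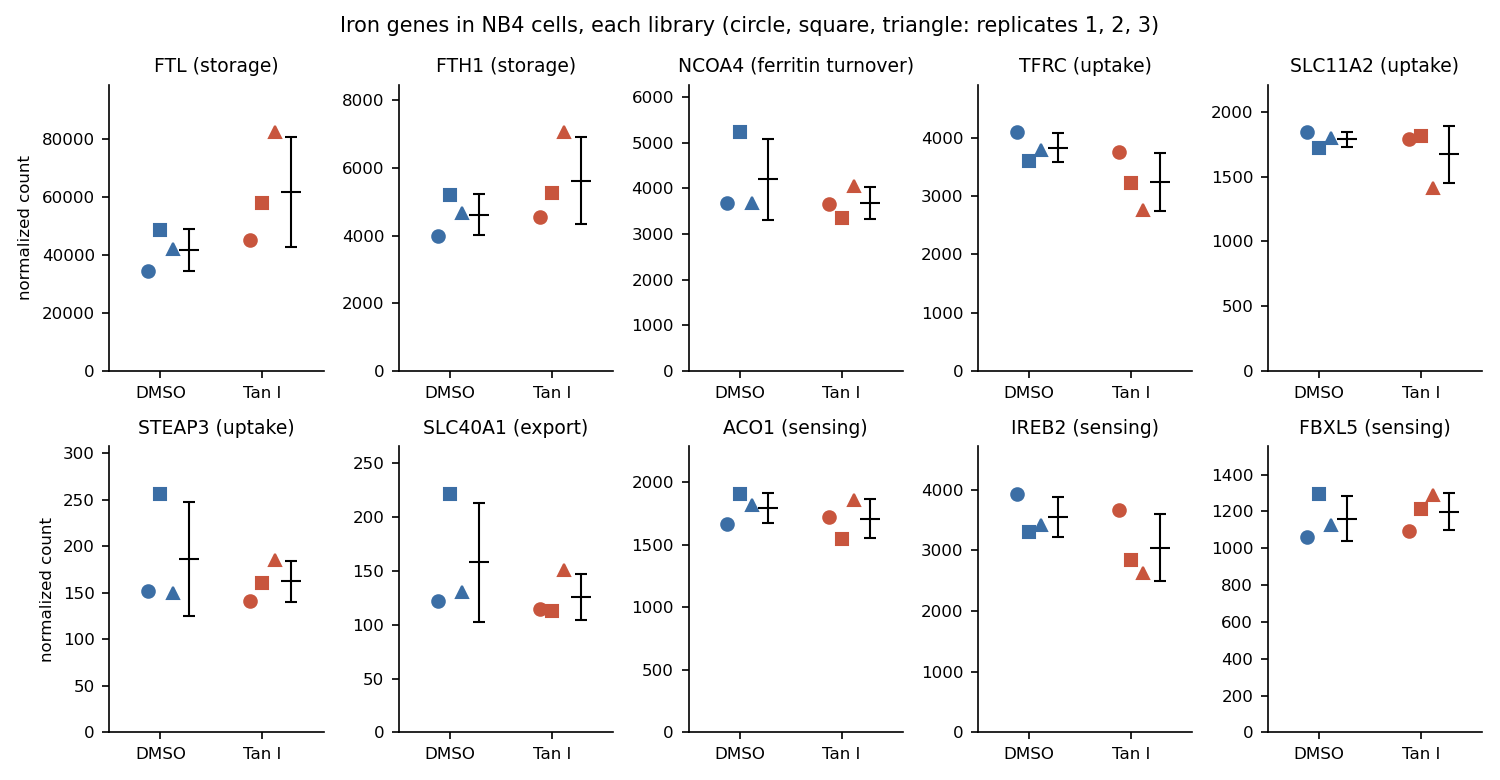
Normalized counts of the 10 iron genes (vertical axis, from 0, own scale per gene) in the 3 DMSO (blue) and 3 Tan I (red) libraries, with circle, square and triangle for replicates 1, 2 and 3; black bars give the mean ± SD of 3 libraries. FTL reached 82245 in Tan I 3 against at most 48712 in DMSO, and in every gene the points of both groups overlap.

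FTL, the ferritin light chain, which helps the shell to mineralize iron, was the most abundant member. It measured 34388, 48712 and 41950.2 normalized counts in DMSO 1, 2 and 3, and 45089, 57877 and 82245 in Tan I 1, 2 and 3. Both Tan I 2 and Tan I 3 lay above all DMSO libraries, and Tan I 1 lay below DMSO 2. The means were 41683 ± 7166 for DMSO and 61737 ± 18880 for Tan I (SD, n = 3), a log2 fold change of 0.54 (SE 0.25, 95% confidence interval -0.058 to 1.13). The change did not pass the rule (limma, unadjusted p = 0.0705; exact two-sided permutation test, p = 0.2, where 0.1 is the smallest p that 3 against 3 allow). Its size rested in part on single libraries: it was 0.31 without Tan I 3 and 0.74 without Tan I 1, where it was called without adjustment (limma, unadjusted p = 0.016, where 8.86% of all genes were called) and not with it (adjusted p = 0.532).

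FTH1, the ferritin heavy chain, carries the ferroxidase that oxidizes iron for storage. It measured 3977, 5192 and 4677 in DMSO 1, 2 and 3, and 4552, 5260.04 and 7052 in Tan I 1, 2 and 3. Only Tan I 3 stood far above the DMSO libraries, Tan I 2 lay just above DMSO 2, and Tan I 1 lay between DMSO 1 and DMSO 3. The log2 fold change was 0.27 (SE 0.19, 95% confidence interval -0.17 to 0.71; limma, unadjusted p = 0.192) and was 0.093 without Tan I 3.

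Both ferritin chains were highest in Tan I 3, and in DMSO both were highest in replicate 2. The ratio of FTL to FTH1 counts within a library does not depend on the size factor. It was 8.65, 9.38 and 8.97 in DMSO 1, 2 and 3, and 9.91, 11.0 and 11.7 in Tan I 1, 2 and 3. All 3 Tan I ratios lay above all 3 DMSO ratios, with means of 9.0 ± 0.37 and 10.9 ± 0.89 (SD, n = 3). As log2 of FTH1 over FTL, the Tan I mean was lower than the DMSO mean by a difference of -0.27, and the difference ran from -0.33 to -0.22 when each library was left out in turn. The ratio also rose with the score on the first component within each group, and its difference was not tested.

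NCOA4 is the receptor that delivers ferritin to autophagy so that its iron is released. Its counts were 3669, 5227 and 3686 in DMSO 1, 2 and 3, and 3645, 3347 and 4047 in Tan I 1, 2 and 3. DMSO 2 was far above the rest. The log2 fold change was -0.17 (SE 0.17; limma, unadjusted p = 0.337), and without DMSO 2 it was -0.0034.

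TFRC, the transferrin receptor, measured 4097, 3598 and 3799 in DMSO 1, 2 and 3, and 3759, 3220 and 2769 in Tan I 1, 2 and 3. Tan I 2 and Tan I 3 lay below all DMSO libraries, while Tan I 1 lay above DMSO 2. The means were 3832 ± 251 and 3249 ± 496 (SD, n = 3), a log2 fold change of -0.25 (SE 0.14, 95% confidence interval -0.57 to 0.081) that did not pass (limma, unadjusted p = 0.119; exact two-sided permutation test, p = 0.2). Without Tan I 1 it was -0.36 and was called without adjustment (limma, unadjusted p = 0.0296; adjusted p = 0.532), in a fit that called 8.86% of all genes. The log2 ratio of TFRC to the sum of both ferritin chains was -3.23, -3.90 and -3.62 in DMSO 1, 2 and 3, and -3.72, -4.29 and -5.01 in Tan I 1, 2 and 3. These ratios overlapped between the groups, with Tan I lower by a mean difference of -0.76 (between -1.07 and -0.43 with each library left out in turn).

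SLC11A2, the divalent metal transporter DMT1 that carries iron out of the endosome, measured 1843, 1723 and 1798 in DMSO 1, 2 and 3, and 1787, 1813 and 1415 in Tan I 1, 2 and 3. Tan I 3 lay below the other libraries, which lay close together. Its log2 fold change of -0.11 (SE 0.13; limma, unadjusted p = 0.443) became 0.010 without Tan I 3.

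STEAP3, the endosomal reductase that prepares iron for DMT1, was a low gene with 139 to 266 reads per library. Its normalized counts were 152, 256 and 150.02 in DMSO 1, 2 and 3, and 141, 160.2 and 185 in Tan I 1, 2 and 3. DMSO 2 was again the highest, and all Tan I libraries lay below it. The log2 fold change was -0.16 (SE 0.25; limma, unadjusted p = 0.537) and turned to 0.093 without DMSO 2.

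SLC40A1 encodes ferroportin, the known exporter of iron from cells, and had 107 to 230 reads per library. Its normalized counts were 122, 222 and 130.5 in DMSO 1, 2 and 3, and 114, 113 and 151 in Tan I 1, 2 and 3. Here too DMSO 2 stood above every other library. The log2 fold change of -0.29 (SE 0.27, 95% confidence interval -0.91 to 0.34; limma, unadjusted p = 0.32) fell away to -0.017 without DMSO 2. At these read numbers the interval was wide and held no change.

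ACO1 is iron regulatory protein 1, which acts as an aconitase when it holds an iron-sulfur cluster and binds RNA when it does not. It measured 1670.01, 1909 and 1815 in DMSO 1, 2 and 3, and 1722, 1547 and 1856 in Tan I 1, 2 and 3, with Tan I 2 the lowest and DMSO 2 the highest. The log2 fold change was -0.075 (SE 0.12, 95% confidence interval -0.35 to 0.20; limma, unadjusted p = 0.545).

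IREB2 is iron regulatory protein 2, which is degraded when iron is plentiful. It measured 3936, 3301 and 3419 in DMSO 1, 2 and 3, and 3667, 2843 and 2630 in Tan I 1, 2 and 3. As for TFRC, Tan I 2 and Tan I 3 lay below all DMSO libraries and Tan I 1 did not. The log2 fold change was -0.23 (SE 0.15, 95% confidence interval -0.59 to 0.13; limma, unadjusted p = 0.174). Without Tan I 1 it was -0.37 and was called without adjustment (limma, unadjusted p = 0.0253, adjusted p = 0.532). That fit called 8.86% of all genes.

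FBXL5, the sensor that targets iron regulatory protein 2, measured 1060.2, 1296 and 1125 in DMSO 1, 2 and 3, and 1094, 1216 and 1290 in Tan I 1, 2 and 3. All Tan I values lay inside the range of the DMSO libraries. Its log2 fold change was 0.050 (SE 0.13, 95% confidence interval -0.25 to 0.35; limma, unadjusted p = 0.707).

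Several members followed the gradient between libraries. FTL and FTH1 were lowest in DMSO 1, which had the lowest score on the first component, and highest in Tan I 3, which had the highest, and TFRC ran the opposite way between the same libraries. The alternative fit with this score as a covariate narrowed the intervals, but the score was computed from the same libraries and genes that it adjusts. In that fit FTL was called with and without adjustment (limma, log2 fold change 0.39, 95% confidence interval 0.23 to 0.56, unadjusted p = 0.00016, adjusted p = 0.0279), where 1.15% of all genes were called with adjustment and 8.86% without. SLC40A1 was called without adjustment only (limma, -0.42, unadjusted p = 0.0196, adjusted p = 0.228). The other 8 members were not called: FTH1 and TFRC had unadjusted p-values of 0.0244 and 0.00978 in limma, but their fold changes of 0.16 and -0.18 were under the fold threshold. NCOA4 (limma, -0.24, unadjusted p = 0.0149) and IREB2 (-0.16, unadjusted p = 0.0386) were likewise under it. The closest libraries of different treatment on this gradient were DMSO 1 and Tan I 1, which also differed least from each other of all pairs of libraries. Between them Tan I over DMSO was 1.31 for FTL and 1.14 for FTH1, and 0.918 for TFRC, 0.932 for IREB2, 0.936 for SLC40A1 and 0.926 for STEAP3. It was 0.97 for SLC11A2, 0.993 for NCOA4 and 1.03 for both ACO1 and FBXL5. This is 1 library against 1, with no replicate check.

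**Figure D2:**
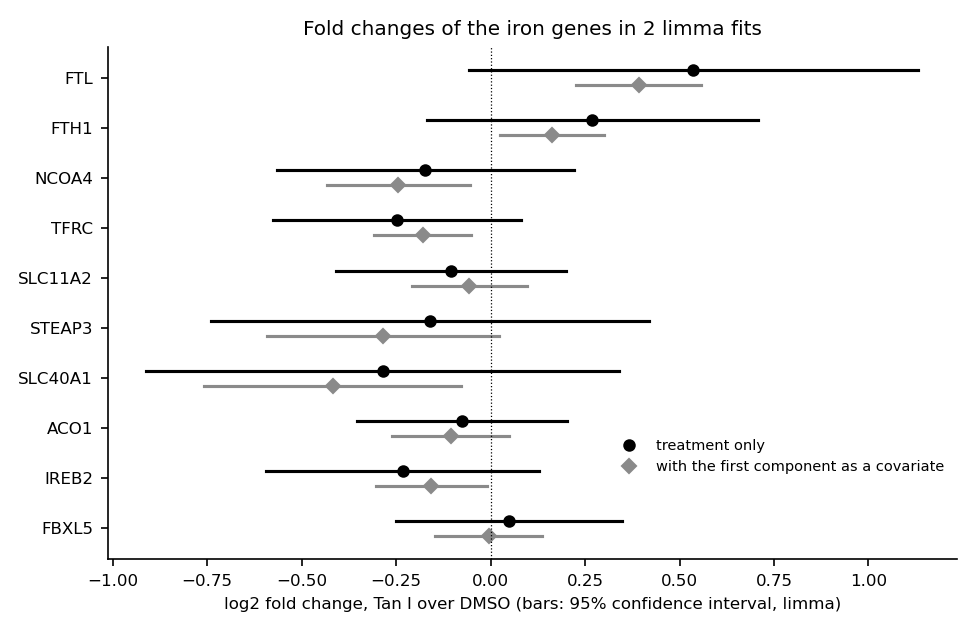
Log2 fold change between Tan I and DMSO (horizontal axis, above 0 for higher in Tan I) for the 10 iron genes (vertical axis), with 95% confidence intervals from limma on 3 libraries per group; black circles give the fit with treatment only and grey diamonds the fit with the first principal component score as a covariate. Every black interval crosses 0, and the grey interval of FTL runs from 0.23 to 0.56.

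**Figure D3:**
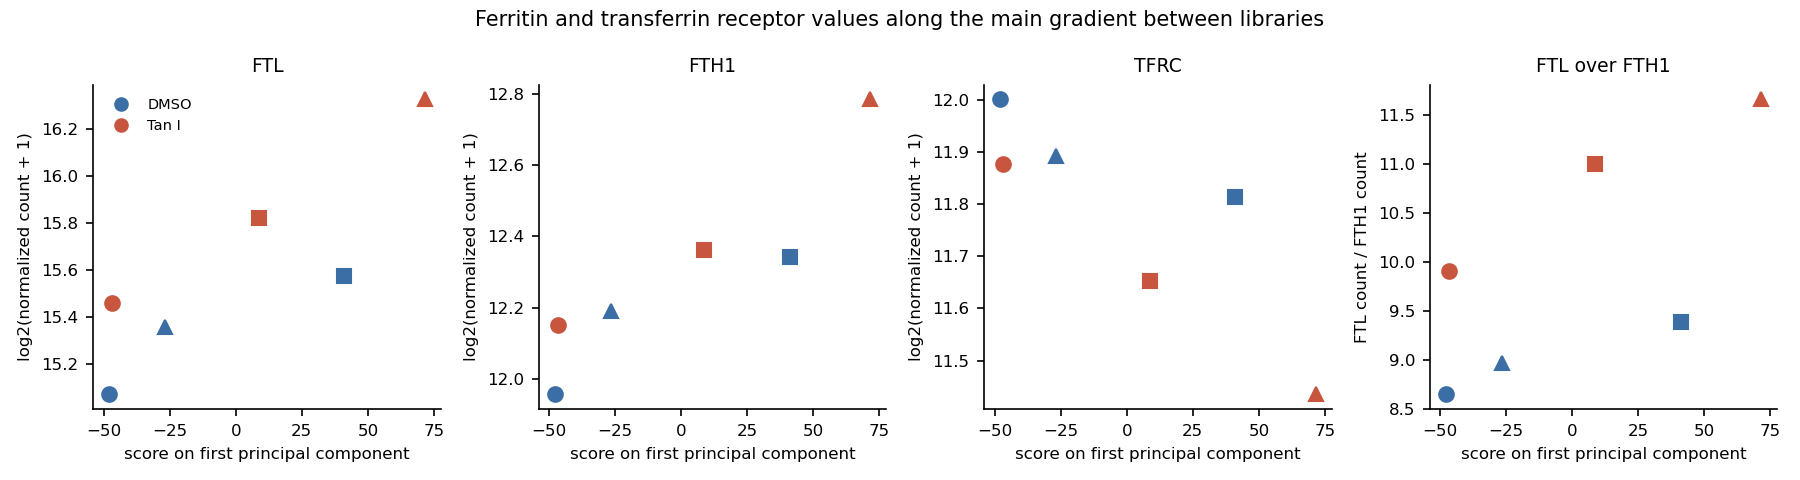
Log2(normalized count + 1) of FTL, FTH1 and TFRC, and the ratio of FTL to FTH1 counts (vertical axes, not from 0), against the score of each library on the first principal component (horizontal axis); blue is DMSO, red is Tan I, and circle, square and triangle are replicates 1, 2 and 3. Tan I 3, at a score of 71.6, is highest in both ferritin chains and lowest in TFRC, and the FTL to FTH1 ratio is above 9.9 in every Tan I library and at most 9.38 in DMSO.

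Levels can be compared between genes only per length. In normalized counts per kilobase of the canonical transcript, the DMSO means were 47857 for FTL, 3837 for FTH1, 1212 for NCOA4, 764 for TFRC, 562 for IREB2, 433 for SLC11A2, 333 for FBXL5, 242 for ACO1, 47.5 for SLC40A1 and 43.7 for STEAP3. In this order the DMSO ranges of neighbouring genes did not overlap, except those of SLC40A1 (36.7 to 66.5) and STEAP3 (35.2 to 60.2). FTL, FTH1 and NCOA4 also led per kilobase of all annotated exons, while TFRC moved from place 4 to place 7 there.

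The likeness of other genes to FTL, FTH1 and TFRC was measured as the root mean square difference between centred log2(normalized count + 1) values over the 6 libraries, which share the gradient described above. The genes closest to FTL were CTSW (0.0457), CDKN2D (0.0477) and TIMP1 (0.0492), where the median over all genes was 0.439. Closest to FTH1 were ANXA2 (0.0189), SOD1 (0.031) and H3F3B (0.031), and closest to TFRC were NEK9 (0.0188), POLR2J4 (0.0189) and TNRC18 (0.0208). Among the members themselves, TFRC and IREB2 were the closest pair (0.0517), closer than FTL and FTH1 (0.155).

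Ferritin genes have many processed pseudogenes with nearly the same sequence, and reads mapping to several places had been removed. The table listed 2 FTL and 8 FTH1 pseudogenes. Their summed counts were 0.304% to 0.366% of FTL and 3.54% to 4.77% of FTH1, and the groups overlapped in every row. FTLP3 was called without adjustment (limma, log2 fold change 0.64, unadjusted p = 0.0499), with the same sign as FTL, and was the only 1 of the 9 pseudogenes tested, where 2.42% of all genes were called. It was not called by edgeR (unadjusted p = 0.065) or DESeq2 (unadjusted p = 0.0537). Windows of 150 bases, the read length, from the canonical transcripts had an exact match at another place in the genome, a few bases into their own introns included, in 0.139% of positions for FTL and 0.759% for FTH1. How many reads of the parents were lost or counted on a copy cannot be told from the table, so their levels are uncertain to that degree. The sources used here give no strand setting, so reads of FTH1 and BEST1, FBXL5 and FAM200B, and STEAP3 and STEAP3-AS1, which overlap on opposite strands, cannot be told apart where they overlap. TFRC, IREB2 and NCOA4 also overlap non-coding genes on the other strand, SLC11A2 overlaps RNU6-87P on its own strand, and FTL, SLC40A1 and ACO1 overlap no other annotated gene.

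Of 79 other genes of iron handling, 62 were listed and tested. By the rule of the members 0 were called (limma; 0 with edgeR and 0 with DESeq2), with 39 above 0 and 23 below 0 and a median log2 fold change of 0.076. Groups lay apart only in 1 of the 62, where they did in 7.89% of all genes. It was CIAO1, a scaffold of cytosolic iron-sulfur assembly, with 2795, 2737 and 2722 in DMSO 1, 2 and 3 against 2633, 2539 and 2487 in Tan I 1, 2 and 3. That difference was small (log2 fold change -0.11, SE 0.098) and did not pass (limma, unadjusted p = 0.302). The plot of the wider iron genes gives each list with its median.

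**Figure D4:**
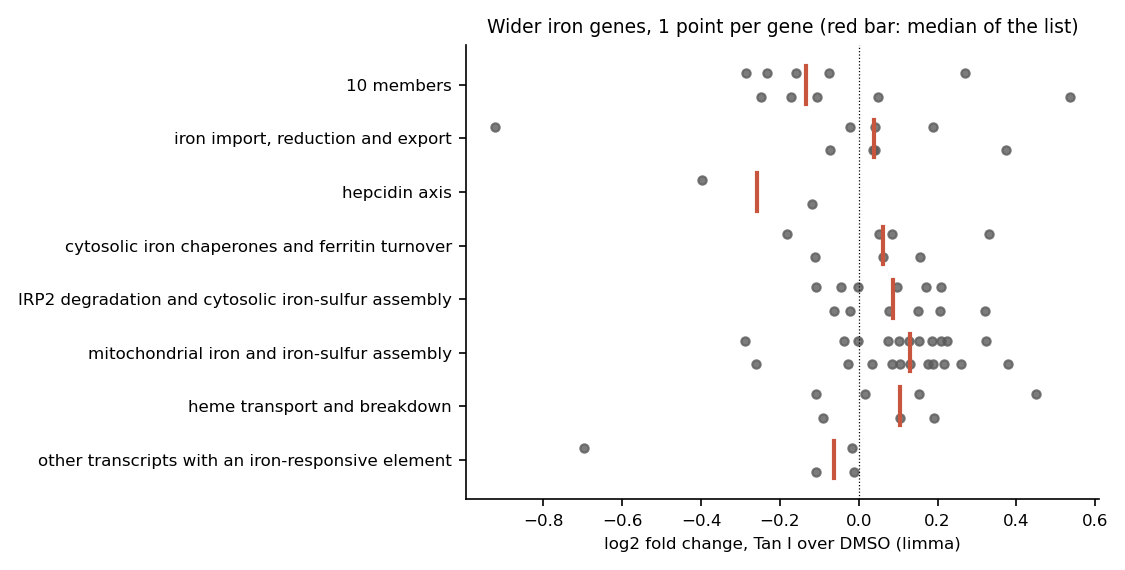
Log2 fold change between Tan I and DMSO (horizontal axis, above 0 for higher in Tan I; limma, 3 libraries per group) for the 10 members and for 62 other iron genes grouped in 7 lists (vertical axis), with 1 point per gene and a red bar at the median of each list. The medians of the lists lie between -0.26 and 0.13, and none of these genes was called in limma, where 2.42% of all genes were.

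In the list of import, reduction and export, 5 of 8 were above 0 (median 0.039). CYBRD1, a ferric reductase, was at 1521 ± 40.9 and 1498 ± 56.6 normalized counts for DMSO and Tan I, and SLC39A14, a transporter of iron not bound to transferrin, was at 1469 ± 14.6 and 1514 ± 82.3 (SD, n = 3). Both genes of the hepcidin axis were below 0: ERFE, the erythroid regulator of hepcidin, at -0.12, and NEO1, a co-receptor of hemojuvelin, at -0.40 (limma, unadjusted p = 0.1). Among 7 genes of cytosolic chaperones and ferritin turnover, 5 were above 0, among them PCBP2, which loads ferritin with iron (0.16). HERC2, the ligase that degrades NCOA4, was at -0.18, with 4224 in DMSO 2 and 3762 in Tan I 3 against 6136 to 8828 in the other 4 libraries. Of 12 genes of iron regulatory protein 2 degradation and cytosolic iron-sulfur assembly, 7 were above 0, and MMS19, which hands clusters to target proteins, was at -0.045.

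The list of mitochondrial iron and iron-sulfur assembly had 17 of 22 above 0 (median 0.13), with the chaperone HSPA9 at 0.084 and the importer SLC25A37 (mitoferrin) at -0.038. With the first component as a covariate its median was 0.035. Of 7 genes of heme transport and breakdown, 5 were above 0, with the exporter FLVCR1 at 0.016 and the lysosomal heme transporter SLC48A1 at -0.090. All 4 other transcripts known to carry an iron-responsive element were below 0 (median -0.064), where 49.7% of all genes tested were above 0. None of them was called, and CDC14A, a phosphatase, was at -0.11 (limma, unadjusted p = 0.43). The median of this list was -0.043 with the first component as a covariate. LTF and LCN2, the granule proteins that bind iron or its carriers, were not listed in the table analysed here, nor was HAMP, the hormone hepcidin.

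FTL, FTH1 and SLC40A1 are also known targets of the stress regulator NRF2, as is HMOX1, which breaks down heme. HMOX1 measured 49.4, 63.6 and 45.3 in DMSO 1, 2 and 3, and 51.8, 59.0 and 120.02 in Tan I 1, 2 and 3. Only Tan I 3 was high, and the log2 fold change of 0.45 (SE 0.35; limma, unadjusted p = 0.238) did not pass.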

How the data were processed

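RNA-seq libraries of NB4 cells (3 for DMSO, 3 for Tan I) were grouped by the sample titles. Per the study's methods, paired-end reads of 150 bases were aligned by the authors to GRCh38 with STAR. They dropped reads that mapped to several places, counted the rest per gene with featureCounts and used DESeq2; versions are not given in the sources used here. The authors deposited a signal table of normalized counts, each count divided by a size factor per library. The table also holds the authors' own comparison (mean, fold change, error, test statistic, p-values), which was not used. All values were whole multiples of 1 read (tolerance 0.001), so reads were recovered.

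The main test was limma 3.58.1 (R 4.3.3; eBayes with trend) on log2(value + 1) for 16887 genes with a mean of at least 10; 1738 genes were left out. Fold changes are differences of mean log2(value + 1), where the added 1 shrinks differences between low values. For low genes they can be larger or smaller than those of edgeR and DESeq2. For single members, the difference in mean log2 values was also given an exact two-sided permutation p. Alternatives were pseudocounts of 0.1 and 10, no filter, a mean of at least 50, quantile normalization, equal totals, eBayes without the trend, edgeR 4.0.16 and DESeq2 1.42.0 on recovered reads, a block for the replicate number, the first principal component as a covariate, and each library left out. Code was tested on simulated data. Gene models and UTRs came from GENCODE release 44, in which 99.6% of the identifiers were found. Named genes were the members, wider iron genes that were called, the 2 with the highest mean per list, and the 3 genes closest to FTL, FTH1 and TFRC. HMOX1, HAMP, LTF, LCN2, FTLP3, MPO, ABCB10 and the genes named for overlap were added after their values were seen. A gene that this rule names is not reported here. The members and lists were chosen with earlier results of these data known.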

Additional observations from a re-analysis of the deposited data

How the results depend on the processing

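FTL, FTH1, TFRC, IREB2, NCOA4, SLC40A1 and ACO1 kept the sign of their fold change under all 17 alternatives. Some of these could not turn a sign: no filter, a mean of at least 50, eBayes without the trend and the replicate block leave the fold change as it was. Against 0 members called without adjustment, quantile normalization, equal totals per library and DESeq2 each called 1 (FTL), the first principal component as a covariate called 2, and leaving out 1 library called 0 to 3 (3 without Tan I 1). With adjustment, 1 member was called with the first component as a covariate and 0 under the other alternatives. Against 0 of the wider iron genes, equal totals called 1 (ABCB10), the first component as a covariate called 2 (NEO1 and ABCB10), and leaving out 1 library called 0 to 4 (4 without Tan I 1, 1 without DMSO 2). Of all genes, 408 were called, 377 with quantile normalization, 439 with equal totals, 420 with DESeq2, 1496 with the first component as a covariate, and 160 to 1496 with 1 library left out (160 without Tan I 2, 180 without DMSO 1, 201 without DMSO 3, 271 without Tan I 3, 1496 without Tan I 1). The sign turned for FBXL5 with equal totals (-0.0097), with the first component (-0.0050) and among fits without 1 library (-0.013 to 0.13), for STEAP3 (-0.29 to 0.093) and for SLC11A2 (-0.17 to 0.010). Equal totals moved the share of genes above 0 from 49.7% to 38.2%. The log2 fold change of FTL was 0.48 with equal totals and 0.38 with quantile normalization, against 0.54 in the main fit. The cause of these shifts was not tested.

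With the replicate number as a block (replicate block), 1 member was called without adjustment, FTL (limma, unadjusted p = 0.0409), and 348 of all genes. Correlations of the deviations of same-numbered libraries were 0.75, -0.088 and -0.45, and that of DMSO 2 with Tan I 3 was 0.76. The deviations share the gradient described above, so they cannot tell whether same-numbered libraries were paired.

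With 3 libraries per group, wide intervals limit what can be seen: that of FTL ran from -0.058 to 1.13.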
